A study of Homo sapiens with 64 samples.

Results

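The mitotic genes described here are 53 genes with known work in cell division, named in a list that was made with earlier results of these data known, so the counts below are not an independent test of it. Among them are the mitotic cyclins, the Aurora and Polo-like kinases, the spindle checkpoint, kinetochore and spindle proteins, mitotic kinesins and regulators of anaphase and cytokinesis. All 53 were on the array, with 109 of its 54675 probe sets, and each gene was represented by its brightest probe set with a named gene of its own, among 19775 genes tested. The cells were BEAS-2B, a human airway epithelial line immortalised with a hybrid of an adenovirus and SV40, whose large T antigen binds the retinoblastoma family of cell cycle repressors. The culture medium was keratinocyte medium free of serum, first with epidermal growth factor and bovine pituitary extract and then without them, and cells were confluent when treated. There were 16 groups of 4 replicates, 64 arrays in all: vehicle alone, indacaterol, GSK256066, and the 2 drugs combined, each drug at 10 nM, each for 1, 2, 6 and 18 h. Indacaterol is a long-acting β2-adrenoceptor agonist that raises cyclic AMP, and GSK256066 inhibits phosphodiesterase 4, which breaks cyclic AMP down. The design allows each drug to be set against vehicle at each time, and the combination against either drug, and vehicle at 4 times shows how these genes vary with no drug present.

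Mitotic genes are transcribed in a wave that begins late in the cell cycle and peaks as cells enter mitosis. In cells outside that window they are held down by the DREAM complex, which binds a promoter element called the cell cycle homology region (CHR), and in dividing cells B-MYB, the MuvB core and FOXM1 turn them on, often together with NF-Y, which binds CCAAT boxes. Their RNA is therefore often read as a rough measure of how many cells of a culture are close to division. In bulk RNA, fewer cells in mitosis and less RNA per mitotic cell cannot be told apart.

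The arrays were close in overall brightness, with medians from 101.2 to 127.4, and no 2 of them held identical values. Of the epithelial markers, KRT18 (mean signal 7756) and KRT8 (4911) were bright. KRT5 averaged 165 and KRT14 24.0 outside replicate 3, and 32670 and 331000 in replicate 3, so the arrays of that number stand apart and the main counts are also given without them. EPCAM was dim (101.3), and of 9 fibroblast markers COL1A1 (8575), PDGFRB (1748) and THY1 (1355) were bright and the other 6 lay between 75.2 and 193. The 5 leukocyte markers measured ran from 29.7 (PTPRC) to 357 (LYZ), and the 5 ciliated cell markers from 17.0 (FOXJ1) to 146 (DNAI1). The labels do not say whether the 4 replicates came from separate cultures, so p-values here reflect the variation among these arrays, which may be technical, and their number limits the precision.

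The promoters of these genes hold letters that the making of the list did not use. RefSeq promoters (build GRCh38.p14, 250 bases before to 50 after the start) were at hand for 43 of the 53 members and for 15843 protein-coding genes. A CHR core, TTTGAA or TTCGAA on either strand, lay in 31 of the 43 (72.1%) and in 13.5% of all protein-coding promoters. In the last 100 bases of the window, from 50 before to 50 after the start, 53.5% of member promoters and 3.65% of all promoters held a CHR core. CCAAT, on either strand, lay in 76.7% of member promoters and 36.4% of all, and at least 2 copies in 46.5% and 12.5%. The same held for 40 other mitotic regulators, a list used further on. Of their 33 promoters 78.8% held a CHR core, 72.7% near the start and 66.7% CCAAT, so the CHR is not particular to the members. Of 36 promoters of DNA replication genes, 5.56% held a CHR core and 58.3% held CCAAT. That list, used further on, holds RPA2, ORC1, CDC6, UHRF1 and the cyclin CCNE1 beside helicase, primase and clamp loader genes. The cyclic AMP response element TGACGTCA lay in 3 of the 43 member promoters (6.98%) and in 2.59% of all, and its shorter form TGACG, which the full element contains, in 37.2% and 29.5%. A match is a string of letters and not a shown binding site.

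The 250 bases before the start are printed for BORA, CCNF, HJURP and CDCA8, the members with a RefSeq promoter that were lower with indacaterol at 2 h, and for PLK1, CENPA and PRC1, which fell under vehicle between 1 and 6 h. Capitals mark CHR cores and CCAAT boxes on either strand, and each sequence runs 5′ to 3′ on the strand of the gene.
BORA: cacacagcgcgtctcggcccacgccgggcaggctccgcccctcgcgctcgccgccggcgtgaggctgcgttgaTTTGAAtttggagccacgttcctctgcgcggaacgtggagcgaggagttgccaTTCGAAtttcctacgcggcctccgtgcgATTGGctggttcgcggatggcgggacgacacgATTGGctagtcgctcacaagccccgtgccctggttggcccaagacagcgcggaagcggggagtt
CCNF: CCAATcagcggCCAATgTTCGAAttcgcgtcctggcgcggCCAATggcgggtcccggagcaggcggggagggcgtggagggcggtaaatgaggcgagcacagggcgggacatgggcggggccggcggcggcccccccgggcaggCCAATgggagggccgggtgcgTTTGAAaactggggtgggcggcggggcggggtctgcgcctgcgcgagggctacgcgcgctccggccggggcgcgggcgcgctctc
HJURP: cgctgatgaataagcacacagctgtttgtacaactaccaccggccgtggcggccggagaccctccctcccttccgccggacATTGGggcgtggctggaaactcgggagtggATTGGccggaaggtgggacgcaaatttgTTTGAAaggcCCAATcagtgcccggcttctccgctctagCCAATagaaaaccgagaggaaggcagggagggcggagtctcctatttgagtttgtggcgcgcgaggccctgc
CDCA8: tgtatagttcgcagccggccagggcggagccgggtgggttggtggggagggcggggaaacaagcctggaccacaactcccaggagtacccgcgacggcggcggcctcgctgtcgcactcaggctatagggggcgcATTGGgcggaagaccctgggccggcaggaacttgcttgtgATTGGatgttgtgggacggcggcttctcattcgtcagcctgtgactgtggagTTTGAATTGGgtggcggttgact
PLK1: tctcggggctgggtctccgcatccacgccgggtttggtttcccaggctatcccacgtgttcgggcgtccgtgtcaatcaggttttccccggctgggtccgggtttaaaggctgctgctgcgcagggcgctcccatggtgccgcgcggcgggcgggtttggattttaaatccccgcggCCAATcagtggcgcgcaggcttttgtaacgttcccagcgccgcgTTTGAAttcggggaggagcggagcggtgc
CENPA: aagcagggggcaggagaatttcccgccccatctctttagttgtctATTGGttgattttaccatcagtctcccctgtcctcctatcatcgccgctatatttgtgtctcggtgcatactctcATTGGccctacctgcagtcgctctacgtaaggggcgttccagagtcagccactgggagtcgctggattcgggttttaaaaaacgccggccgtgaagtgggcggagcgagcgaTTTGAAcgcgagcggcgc
PRC1: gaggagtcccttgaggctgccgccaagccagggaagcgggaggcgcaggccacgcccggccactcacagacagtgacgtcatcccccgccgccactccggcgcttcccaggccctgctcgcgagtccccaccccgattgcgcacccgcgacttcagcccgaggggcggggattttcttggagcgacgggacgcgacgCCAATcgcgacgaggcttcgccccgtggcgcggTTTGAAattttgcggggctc

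These stretches lie at chr13:72727673-72727922 (BORA, plus strand), chr16:2429197-2429446 (CCNF, plus), chr2:233854536-233854785 (HJURP, minus), chr1:37692266-37692515 (CDCA8, plus), chr16:23678639-23678888 (PLK1, plus), chr2:26785806-26786055 (CENPA, plus) and chr15:90994536-90994785 (PRC1, minus). In CDCA8, PLK1, CENPA and PRC1 the CHR core began 23, 29, 18 and 20 bases before the start. In BORA and CCNF it lay farther out, with 2 copies in each, at 177 and 124 bases before the start in BORA and at 233 and 85 in CCNF, and in HJURP the core began 111 bases before it. The 12 members whose window held no CHR core were AURKB, CCNA2, CCNB1, CDC25B, CDC25C, CENPE, CKAP2, KIF20A, KIF2C, NEK2, PTTG1 and TACC3. Of the 17 members that fell under vehicle between 1 and 6 h, 11 held a CHR core. So did 20 of the 26 others with a promoter. CDC25C, which fell most, had no core. All 4 with a promoter that were lower with indacaterol at 2 h held a core, as did 27 of the other 39. PRC1 was a member with the full cyclic AMP response element, 177 bases before its start.

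The 53 genes had mean signals over the 64 arrays from 555 (INCENP, the scaffold of the chromosomal passenger complex) to 11190 (PTTG1, securin, the inhibitor of separase). Their levels over the 16 groups followed a shared course. Pearson's correlation of a gene's group means with the median of the other 52 members ran from 0.516 for CDC25B, a CDK1-activating phosphatase, to 0.995 for PRC1, which bundles microtubules of the spindle midzone. The next lowest were the checkpoint protein MAD2L1 (0.604) and PTTG1 (0.668), and the next highest CENPA (0.983), the histone variant that marks centromeres. These correlations describe 16 group means that share arrays and carry no test. Under vehicle, 49 members had their lowest mean at 6 h, and the other 4 (PLK4, AURKB, ESPL1 and NCAPG) at 2 h. The highest mean was at 18 h for 45 members and at 1 h for CCNB1, CCNB2, CDC25B, BIRC5, CDC20, PTTG1, KIF20A and DLGAP5.

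**Figure D1:**
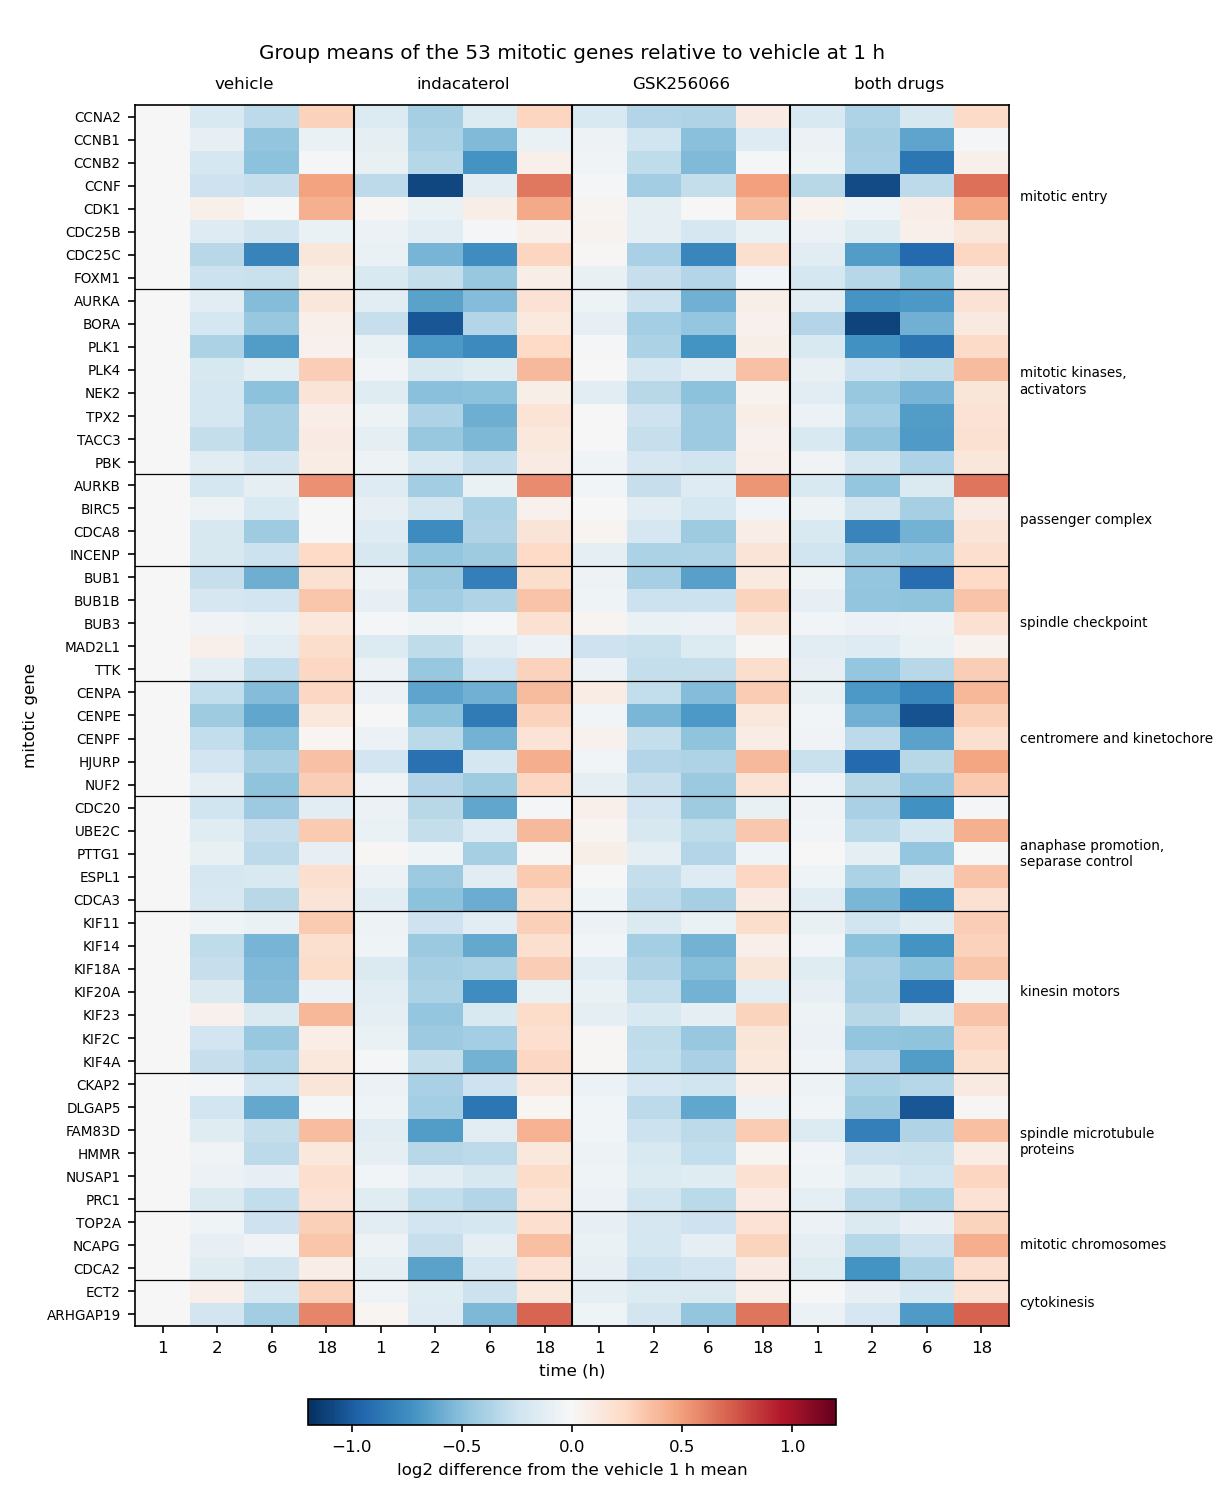
Heat map of the group means of the 53 mitotic genes (rows, by role) in the 16 treatment-by-time groups (columns, time in h), as log2 difference from the mean of vehicle at 1 h, 4 arrays per group. Blue is lower and red higher; the 6 h columns are mostly blue and the 18 h columns mostly red in all 4 treatments, and BORA, CCNF and HJURP are dark blue at 2 h in the indacaterol and both-drug columns.

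Vehicle-treated cells changed their mitotic gene expression over the 18 h with no drug present. By limma's moderated F-test with Benjamini-Hochberg adjustment over all genes, 40 of the 53 members differed between the 4 vehicle times at an adjusted p under 0.05, against 6.65% of all genes tested. Without replicate 1, 2 or 3 the count was 24, 19 or 23. The 13 that did not pass were NCAPG, BUB3, HMMR, TOP2A, PBK, CDCA2, KIF11, CKAP2, KIF23, ECT2, CDC25B, BIRC5 and MAD2L1. ARHGAP19, which acts in cytokinesis, had the lowest p, followed by CDC25C and PRC1. Values are given on the log2(signal + 16) scale, which understates changes of low signals.

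Between 1 and 6 h of vehicle, 17 members fell and 0 rose (limma, adjusted p under 0.05), while 1.07% of all genes fell. All 53 members had a negative log2 difference, as had 50.1% of all genes, and the members' median was -0.31 against 0.00 for all genes tested. For 27 members the 4 arrays at 6 h all lay below the 4 at 1 h, which held for 5.28% of all genes. The count was sensitive to which arrays entered. Without the vehicle 1 h array of replicate 1 or 2 it was 8 or 9, and without the vehicle 6 h array of replicate 3 or 4 it was 9 or 11. Without all arrays of replicate 1, 2 or 3 it was 5, 4 or 8. Same-numbered arrays deviated together here (lowest correlation 0.57), and with replicate number as a block 33 members fell, or 17 with the block on replicates 1, 2 and 4 alone. Shares of all genes called come from the main fit, so a block or leave-out count has none beside it.

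The fall was greatest in CDC25C, the phosphatase that activates CDK1 at mitotic entry. Its signals on replicates 1 to 4 were 2180, 2214, 1741 and 1716 at 1 h, 1621, 1521, 1513 and 1526 at 2 h, and 1127, 1244, 1021 and 1074 at 6 h. The groups at 1 and 6 h were far apart, and the 2 h arrays lay between them. The difference between 6 and 1 h was -0.80 ± 0.106 on the log2 scale (SE, n = 4 per group, limma, adjusted p = 2.9e-06), 0.575 times the 1 h level. All 3 of its probe sets were lower, by -0.80, -0.91 and, on the dimmest set, -0.50 (adjusted p = 0.098 over probe sets).

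PLK1, the Polo-like kinase that drives centrosome maturation and spindle assembly, came next. Its signals were 1662, 1736, 1488 and 1104 at 1 h and 948, 1097, 850 and 804 at 6 h. Only the fourth 1 h array came near the 6 h range, and the groups did not overlap. The difference was -0.68 ± 0.143 (adjusted p = 0.0059). Among the spindle and kinetochore genes, CENPF, a kinetochore protein, had 4685, 4506, 4645 and 4224 at 1 h and 3324, 3500, 2974 and 3063 at 6 h, a difference of -0.49 ± 0.083 (adjusted p = 0.00049). Here too each 6 h array lay below each 1 h array. A second bright probe set of CENPF did not pass (-0.17, adjusted p = 0.86 over probe sets), while a further, dim set was lower by -1.16, so its sets disagree in size.

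Cyclin B1 (CCNB1), the partner of CDK1, had 8479, 8774, 8873 and 7043 at 1 h and 6476, 5813, 5946 and 5558 at 6 h, with a difference of -0.47 ± 0.122 (adjusted p = 0.033). Cyclin B2 (CCNB2) fell by 0.49, while its 2 dim probe sets did not pass (-0.16 and 0.26). The spindle protein DLGAP5 fell by 0.62, CENPA by 0.52 and KIF20A, the midzone kinesin, by 0.52; KIF20A had 8565, 9081, 8007 and 7348 at 1 h and 6494, 6351, 5147 and 5138 at 6 h. The other members that fell were PRC1 (-0.29), PTTG1 (-0.31), KIF4A (-0.37), TACC3 (-0.40), ARHGAP19 (-0.42), CDCA8 (-0.43), CDC20 (-0.44), KIF2C (-0.46) and BORA (-0.46). Calls for CDC25C, CENPF, DLGAP5, PRC1, KIF20A, PTTG1 and PLK1 held when any of the 8 arrays was left out. For CCNB2 and ARHGAP19, leaving out the first 1 h array ended the call, for CENPA the second 1 h or the third 6 h array did, and for TACC3 any of the first and second 1 h and the third 6 h array. Calls for CCNB1, BORA, CDCA8, CDC20, KIF2C and KIF4A ended without any of 4 to 6 arrays, among them the first 2 at 1 h and the last 2 at 6 h for each.

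By role, the fall took in most kinds of mitotic gene. Each gene was placed in a single role, though TACC3 also stabilises spindle microtubules and CDCA3, placed with the anaphase genes, also triggers mitotic entry. Of the 8 mitotic kinases and activators 3 fell (PLK1, BORA, TACC3; median of all 8 -0.43), of the 8 mitotic entry genes 3 (CDC25C, CCNB1, CCNB2; median -0.29), of the 7 kinesins 3 (KIF20A, KIF2C, KIF4A; -0.46), of the 5 centromere and kinetochore genes 2 (CENPA, CENPF; -0.49), of the 5 anaphase genes 2 (CDC20, which activates the anaphase-promoting complex, and PTTG1; -0.31) and of the 6 spindle microtubule proteins 2 (DLGAP5, PRC1; -0.29). CDCA8 was called of the 4 genes of the chromosomal passenger complex, which corrects chromosome attachments (-0.22). Of the 2 cytokinesis genes ARHGAP19 fell, and 0 of the 5 spindle checkpoint genes (median -0.23) and 0 of the 3 chromosome structure genes (-0.22) passed. The kinase CDK1 itself had a difference of -0.01, with 6364, 6547, 6076 and 5620 at 1 h and 6574, 5387, 5838 and 6702 at 6 h, fully overlapping.

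GSK256066 at 6 h against 1 h gave a parallel series of arrays that shares none with vehicle. There, 15 members fell and 0 rose, against 0.561% of all genes falling, with a member median of -0.33 (all genes -0.01). All 15 were among the 17 that fell under vehicle, which is 15 of 15 and 15 of 17; CCNB1 and BORA were the remaining 2. CDC25C was lower by -0.80 there too, PLK1 by -0.70 and CENPA by -0.62. The count was 6 and 8 without the 1 h array of replicate 1 or 2 and 7 and 8 without the 6 h array of replicate 3 or 4. Without replicate 1, 2 or 3 throughout it was 5, 6 or 7. Numbers paired the arrays (lowest correlation 0.58), and with the block 29 members fell, or 16 on replicates 1, 2 and 4 alone. Whether vehicle and GSK256066 arrays of the same number shared a culture or a day is not given in the labels. Such arrays deviated together at 1 h (lowest correlation 0.49) and at 6 h (0.37), so the overlap of 15 members is not an independent repeat.

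**Figure D2:**
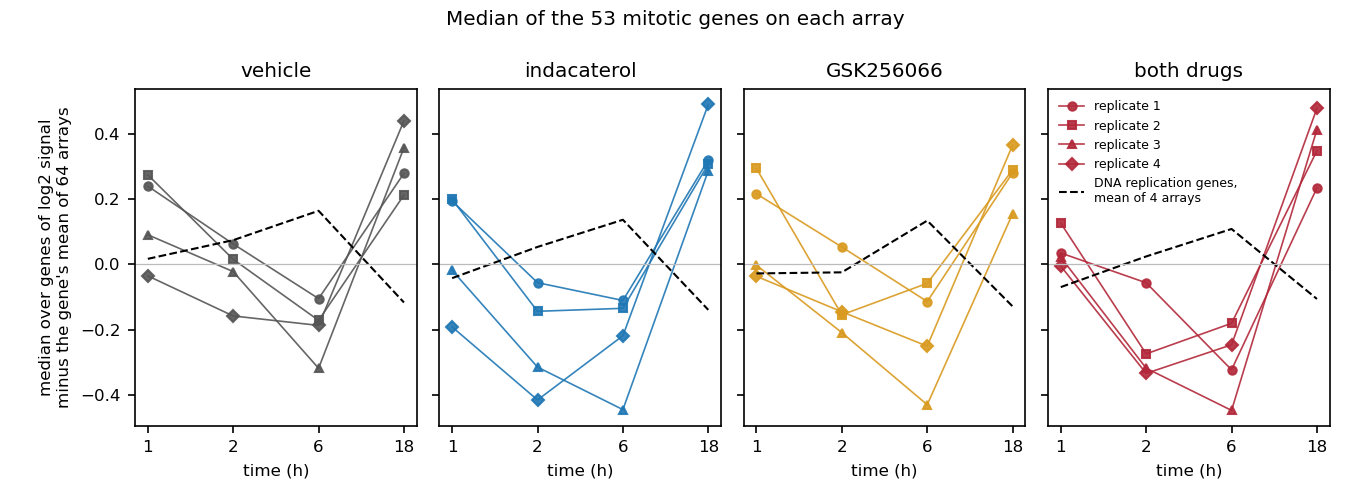
Median over the 53 mitotic genes on each of the 64 arrays, as log2 signal minus the gene's own mean over all arrays (vertical axis), against time in h (the 4 times spaced evenly), by treatment; lines join arrays of the same replicate number, and the dashed line is the same median over 42 DNA replication genes, averaged over 4 arrays. All 16 arrays at 18 h (0.16 and above) lie above all 16 at 6 h (-0.06 and below), and the dashed line runs the other way.

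By 2 h of vehicle, 49 of 53 members already had a lower mean than at 1 h (53.6% of all genes did; median -0.19 against -0.02), but 0 passed limma's adjusted test, against 0.192% of all genes in either direction; 15 members had an unadjusted p under 0.05. The 3 with the lowest p were CENPF (-0.29 ± 0.083, adjusted p = 0.098), TACC3, which stabilises spindle microtubules with chTOG (-0.28 ± 0.089, adjusted p = 0.14), and CDC25C (-0.33 ± 0.106, adjusted p = 0.14). GSK256066 at 2 h against 1 h gave 0 calls (0.0961% of all genes), with 27 members at an unadjusted p under 0.05 and a median of -0.21 (all genes -0.07); CENPF (-0.33 ± 0.083, adjusted p = 0.11), CDC25C (-0.41 ± 0.106, adjusted p = 0.13) and CENPA (-0.38 ± 0.114, adjusted p = 0.21) led. With the block, where numbers paired these arrays, 11 members fell, but 1 with the block on replicates 1, 2 and 4 alone and 0 with it after quantile normalization. The second GSK256066 array at 2 h was dimmer than the rest, with a median over all genes 0.18 below their means on the log2 scale.

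From 6 to 18 h of vehicle the direction turned. This comparison was added after the values were seen, and it shares the 6 h arrays with the one from 1 to 6 h, so a low 6 h value enters both. Here 43 members rose and 0 fell (limma, adjusted p under 0.05), while 3.09% of all genes rose; the median was 0.50 for members and -0.01 for all genes, and 49 members had all 4 arrays at 18 h above all 4 at 6 h (7.52% of all genes). Without replicate 3, 31 members rose, and without replicate 4, 25 did. ARHGAP19 rose most, from 512, 460, 464 and 469 at 6 h to 1024, 852, 994 and 1004 at 18 h. Its 18 h arrays were all above its 1 h arrays as well (744, 587, 635 and 604). The difference between 18 and 6 h was 1.00 ± 0.086 (2.00 times the 6 h level, adjusted p = 1.5e-11).

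CDC25C returned to 2058, 2084, 2108 and 2306 at 18 h, 0.93 ± 0.106 above 6 h (adjusted p = 4.1e-08) and within or near its 1 h range. NUF2, part of the kinetochore's microtubule-binding NDC80 complex, rose by 0.78, CENPA by 0.77, the checkpoint kinase BUB1 by 0.76, cyclin F (CCNF), a ubiquitin ligase subunit, by 0.76, the kinesin KIF14 by 0.76 and HJURP, the chaperone that loads CENPA at centromeres, by 0.75, with adjusted p from 7.3e-06 to 0.0051. These 8 calls held when any array was left out. All 8 mitotic kinases and activators rose, all 5 centromere and kinetochore genes, 7 of 8 mitotic entry genes, 4 of 5 checkpoint genes and 5 of 7 kinesins. The 10 members that did not pass were CDCA2, NCAPG, KIF11, CDC20, CKAP2, ECT2, KIF23, MAD2L1, BIRC5 and CDC25B, with differences from 0.14 to 0.57. GSK256066 from 6 to 18 h, on separate arrays, had 39 members rising (2.73% of all genes), with a median of 0.50. Of these 39, 38 were also among the 43 of vehicle. Same-numbered vehicle and GSK256066 arrays deviated together at 18 h as well (lowest correlation 0.43), so this overlap is not an independent repeat. Without replicate 2, 3 or 4 the GSK256066 count was 25, 32 or 21. The summed signal of the 5 ciliated cell markers, all dim, was 329 to 398 at 6 h and 270 to 315 at 18 h of vehicle, and its part in the change was not tested.

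**Figure D3:**
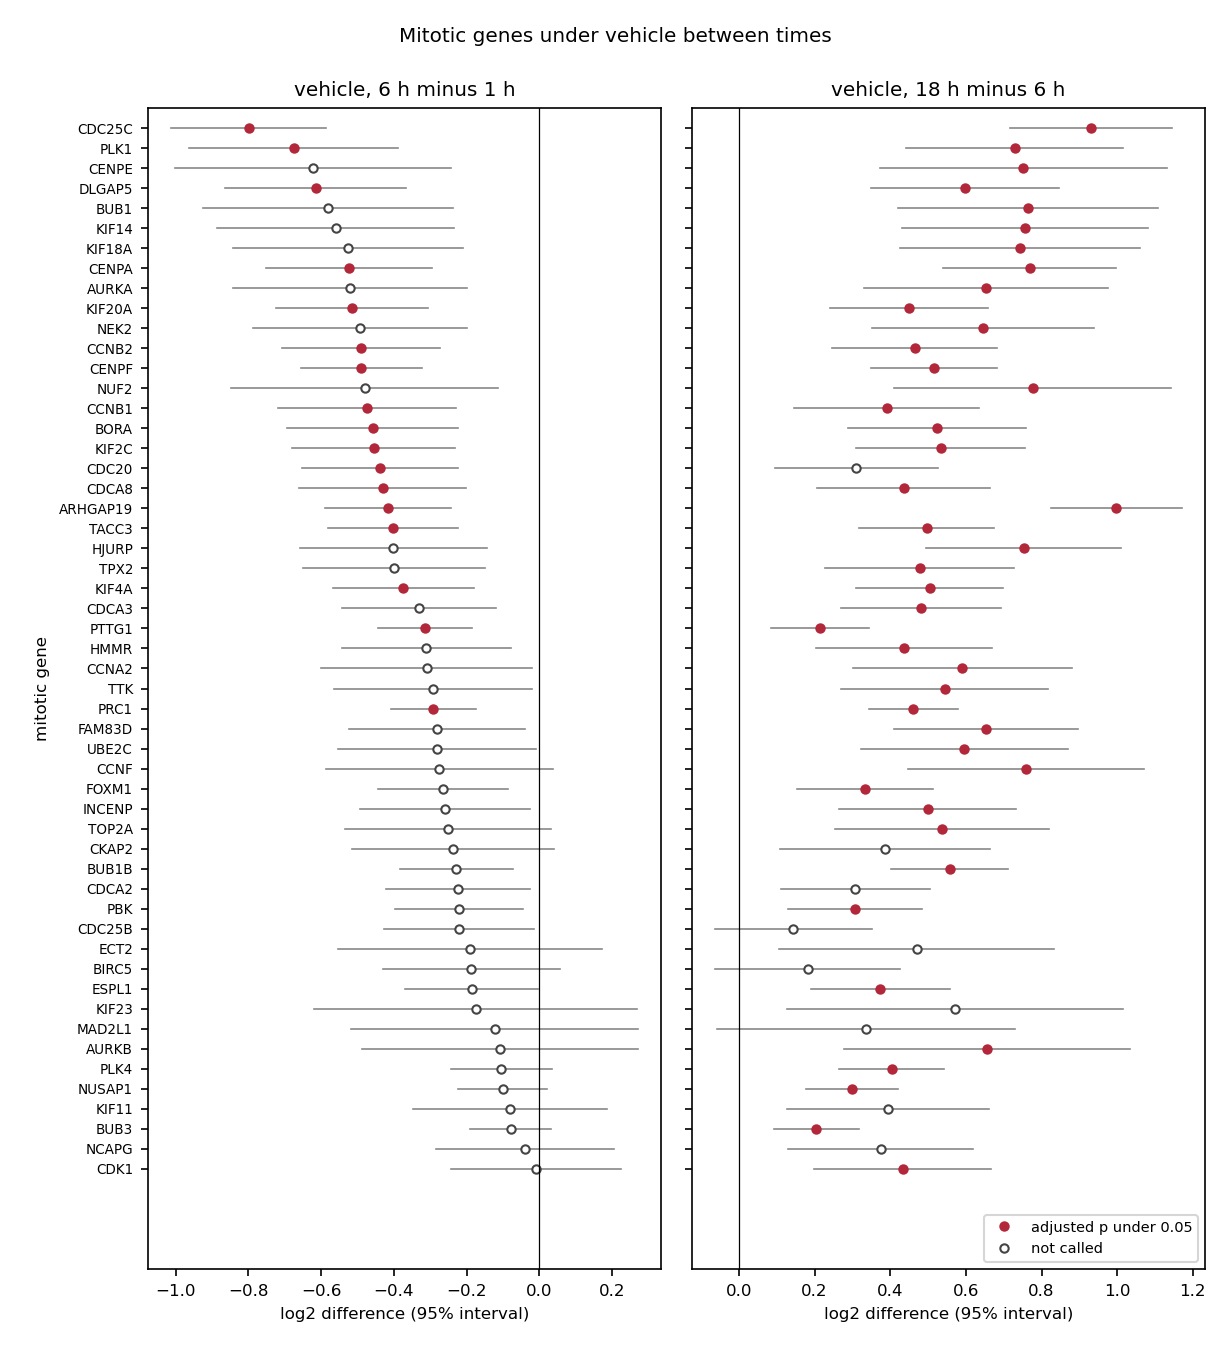
Log2 differences of the 53 mitotic genes under vehicle (horizontal axis, point with 95% interval), 6 h minus 1 h on the left and 18 h minus 6 h on the right, genes ordered by the left panel; filled points have an adjusted p under 0.05 (limma, 4 arrays per group). All 53 points lie left of 0 in the first panel, 17 of them filled, and right of 0 in the second, 43 of them filled.

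Against 1 h, few members passed at 18 h. Under vehicle 4 rose and 0 fell, against 0.571% of all genes rising, with a median of 0.15 (all genes 0.00). They were ARHGAP19 (0.58 ± 0.086, adjusted p = 2.3e-05), PLK4, the kinase of centriole duplication (0.30 ± 0.069, adjusted p = 0.011), the checkpoint kinase-like protein BUB1B (0.33 ± 0.077, adjusted p = 0.013) and CDK1 (0.42 ± 0.116, adjusted p = 0.044). PLK4 had 1925, 2009, 1962 and 2052 at 1 h and 2425, 2348, 2527 and 2492 at 18 h, and CDK1 reached 7893, 7575, 8726 and 8853 at 18 h; neither overlapped its 1 h arrays. BUB1B had 4254, 4158, 4019 and 3497 at 1 h, 3584, 3165, 3529 and 3286 at 6 h and 4828, 4775, 5217 and 5157 at 18 h, so its 18 h arrays stood above both other times. GSK256066 at 18 h against 1 h had 4 rising members too (0.936% of all genes; median 0.17), ARHGAP19 (0.69), PLK4 (0.36), BUB1B (0.32) and NUSAP1, a spindle microtubule protein (0.24).

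The replicates did not move alike in that comparison. The members' median difference between 18 and 1 h of vehicle was 0.01 and -0.07 between same-numbered arrays of replicates 1 and 2, and 0.26 and 0.48 in replicates 3 and 4; between 6 and 1 h it was -0.34, -0.40, -0.39 and -0.16. Members in replicates 3 and 4 started lower at 1 h, with array medians of 0.09 and -0.03 against 0.24 and 0.27. The call for ARHGAP19 held without any array, that for PLK4 ended without the first 1 h array, that for BUB1B without the fourth array at either time, and that for CDK1 without any of the 8. Under vehicle 2 members were called without the 1 h array of replicate 1 or 4 or the 18 h array of replicate 4. Without replicate 1, 2, 3 or 4 throughout, 2, 1, 2 or 1 were called. Under GSK256066 2 were called without the 1 h array of replicate 3 or 4, 3 without replicate 3, and 2 without replicate 2 or replicate 4 throughout. Numbers paired these arrays by the rule used (lowest correlations 0.26 and 0.48), and with the block 12 members rose under vehicle and 13 under GSK256066, or 8 and 10 on replicates 1, 2 and 4 alone.

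Other cell division genes gave a background of related and opposite courses. Of all genes, 1.07% fell between 1 and 6 h of vehicle and 3.09% rose from 6 to 18 h, with medians of 0.00 and -0.01. Shares of all genes in the opposite directions are not given here, so the counts of DNA replication genes have none beside them. Of 40 other mitotic regulators, 6 fell and 0 rose between 1 and 6 h of vehicle (median -0.19), led by SPAG5 (-0.47), a mitotic spindle protein, ASPM (-0.49), a spindle pole protein, and TROAP (-0.51), and 18 rose and 0 fell from 6 to 18 h (median 0.37), led by G2E3 (0.79), SPAG5 (0.61) and ASPM (0.59). The DNA replication genes ran the other way. Between 1 and 6 h, 2 of 42 rose and 0 fell (median 0.15), the clamp loader subunit RFC3 (0.42) and the single-strand binding protein RPA2 (0.23), and from 6 to 18 h 17 fell and 0 rose (median -0.27), among them MCM3 (-0.66), a subunit of the replicative helicase, UHRF1 (-0.62) and MCM10 (-0.51). Between 1 and 6 h, 1 of 17 condensin and cohesin genes fell, NCAPD2 (-0.53), and 1 of 15 measured anaphase-promoting complex genes, its ubiquitin-conjugating partner UBE2S (-0.45). From 6 to 18 h 4 and 2 of these lists rose. None of 11 DREAM and MuvB genes or 14 measured CDK inhibitor and p53 target genes was called between 1 and 6 h, and 0 and 3 rose from 6 to 18 h. Those 3 were CDKN2B, CCNG2 and CCNG1, of which the first inhibits CDK4 and CDK6.

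Indacaterol lowered 6 mitotic genes at 2 h: BORA, CCNF, HJURP, CDCA8, CDCA2 and FAM83D. No member rose, while 0.212% of all genes fell against vehicle (limma, adjusted p under 0.05). The median over the 53 members was -0.20 against 0.00 for all genes tested, and 50 members and 50.1% of all genes had a negative difference. In 13 members the 4 indacaterol arrays all lay below the 4 vehicle arrays, which held for 2.66% of all genes. Without replicate 3 the count was 5, with CDCA8 at an adjusted p of 0.053. Leaving out each replicate or array in turn gave counts of 4 to 6.

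BORA, the cofactor through which Aurora A activates PLK1, had 880, 831, 901 and 727 on the vehicle arrays at 2 h and 551, 487, 412 and 428 with indacaterol. The lowest vehicle array was well above the highest indacaterol array. The difference was -0.81 ± 0.117 (SE, n = 4 per group, adjusted p = 6.2e-06), 0.569 times vehicle. With GSK256066 alone BORA was at 818, 615, 755 and 721, and with both drugs at 531, 476, 387 and 373, again without overlap. Both drugs against GSK256066, a comparison that shares no array with indacaterol against vehicle, gave -0.71 ± 0.117 (adjusted p = 0.00014).

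Cyclin F (CCNF) is the substrate-binding subunit of a ubiquitin ligase that removes CDC6, RRM2 and other proteins late in the cycle. Its signals were 587, 768, 559 and 674 with vehicle and 370, 401, 271 and 371 with indacaterol, and 570, 529, 513 and 680 with GSK256066 and 426, 393, 265 and 352 with both drugs. Neither pair of groups overlapped. The differences were -0.85 ± 0.155 (adjusted p = 0.00042) and -0.66 ± 0.155 (adjusted p = 0.014), the second lost without the fourth GSK256066 array or the third array with both drugs. Its second, dimmer probe set fell as well with indacaterol (-0.55 ± 0.144, adjusted p = 0.035 over probe sets).

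HJURP had 2613, 2215, 2281 and 1987 with vehicle and 1786, 1400, 1162 and 1406 with indacaterol (-0.66 ± 0.128, adjusted p = 0.00092). With GSK256066 it had 2379, 1772, 2010 and 2210 and with both drugs 1843, 1369, 1135 and 1283 (-0.58 ± 0.128, adjusted p = 0.0067). In the second pair the first array with both drugs lay above the second GSK256066 array, so those groups overlapped slightly, and the call was lost without the third array with both drugs. CENPA, which HJURP carries to centromeres, had 1902, 1864, 1740 and 1572 with vehicle and 1640, 1451, 1154 and 1369 with indacaterol, and the groups overlapped. Its difference did not pass (-0.34 ± 0.114, adjusted p = 0.20), nor did that with both drugs against GSK256066, with 1550, 1421, 1143 and 1282 against 1909, 1620, 1786 and 1780 (-0.40 ± 0.114, adjusted p = 0.081).

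CDCA8 (borealin), which holds the chromosomal passenger complex at centromeres, had 2298, 2272, 2122 and 1801 with vehicle and 1744, 1479, 1200 and 1333 with indacaterol (-0.56 ± 0.114, adjusted p = 0.0019). With GSK256066 it had 2192, 1948, 2155 and 2078 and with both drugs 1681, 1487, 1156 and 1277 (-0.59 ± 0.114, adjusted p = 0.0013). Both pairs of groups were apart. Its partners in the complex did not pass in either comparison, with differences under indacaterol of -0.28 for INCENP, -0.21 for the kinase AURKB and -0.16 for BIRC5 (survivin).

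CDCA2, a regulator of a chromosome-bound phosphatase, had 2174, 2020, 1960 and 1900 with vehicle and 1584, 1522, 1222 and 1397 with indacaterol (-0.49 ± 0.098, adjusted p = 0.0015). With GSK256066 and with both drugs it had 2011, 1857, 1659 and 1933 and 1584, 1317, 1237 and 1294 (-0.46 ± 0.098, adjusted p = 0.0055). The spindle protein FAM83D, which recruits casein kinase to the spindle, had 5311, 5101, 4392 and 4283 with vehicle and 3919, 3587, 2754 and 3009 with indacaterol (-0.53 ± 0.121, adjusted p = 0.0078). For both genes the groups did not overlap. FAM83D had 4811, 4769, 3874 and 4176 with GSK256066 and 3668, 3208, 2402 and 2763 with both drugs (-0.56 ± 0.121, adjusted p = 0.0056). The call of FAM83D was lost without the first vehicle array or the third indacaterol array, and against GSK256066 without the third array with both drugs.

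**Figure D4:**
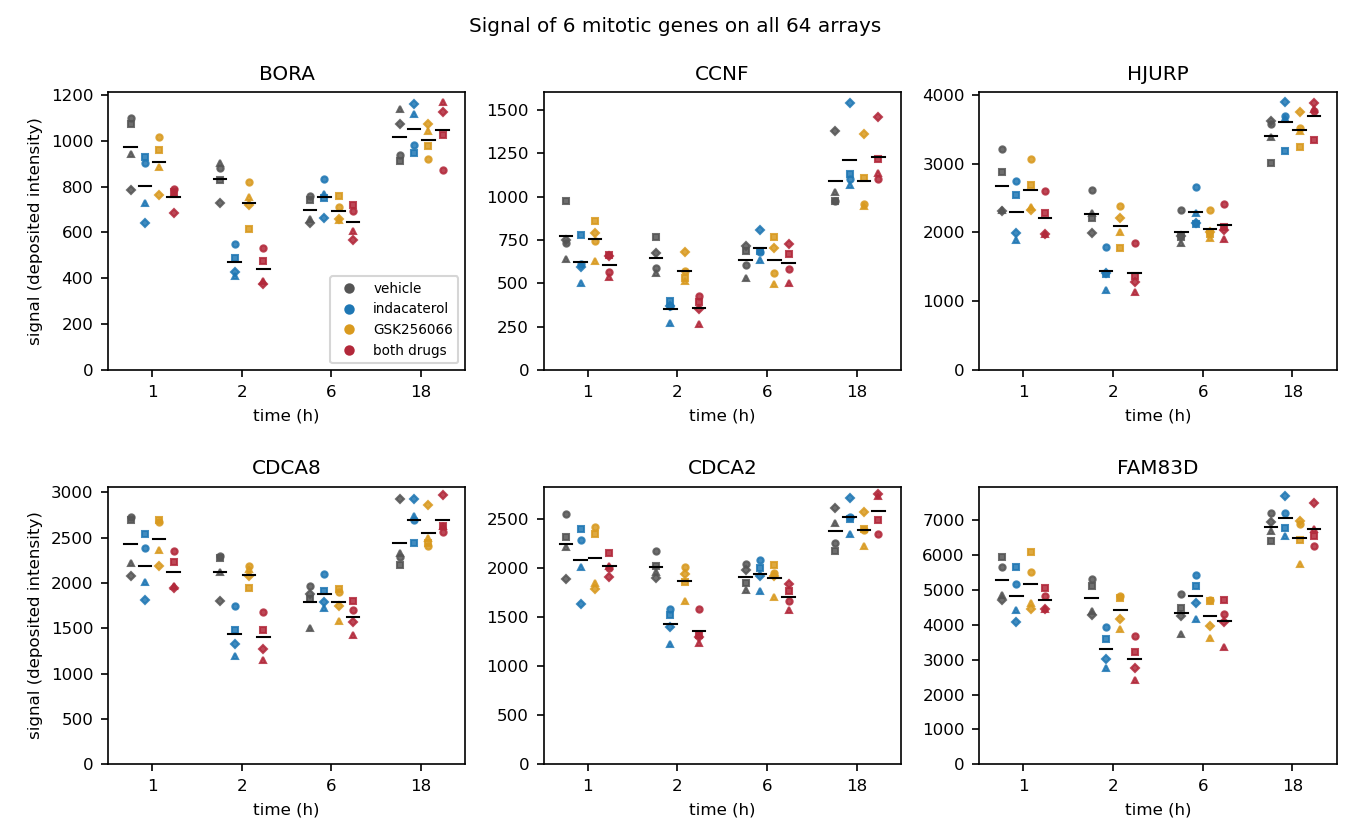
Signal (deposited intensity, vertical axis from 0) of BORA, CCNF, HJURP, CDCA8, CDCA2 and FAM83D on all 64 arrays against time in h; colour is the treatment, marker shape the replicate number (circle 1, square 2, triangle 3, diamond 4) and the bar the mean of 4 arrays. At 2 h the indacaterol and both-drug arrays sit below the vehicle arrays in every panel, and at 18 h the 4 treatments are mixed.

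Both drugs against GSK256066 at 2 h thus had 6 members lower and 0 higher, against 0.0759% of all genes lower; the median of the members was -0.10 and that of all genes 0.04. These 6 were all 6 of the indacaterol against vehicle comparison. Of the 16 arrays at 2 h, 14 correlated best with their own number, so this overlap may not be an independent repeat. Without the third array with both drugs 3 remained, and without replicate 3 throughout 4 were called. Without replicate 2 or without replicate 4 throughout, 2 were called. Both drugs against vehicle shares the vehicle arrays and had 6 members lower (0.192% of all genes), with BORA at -0.90, CCNF -0.83, HJURP -0.70, FAM83D -0.67, CDCA8 -0.60 and CDCA2 -0.57, and 6 without replicate 3. Without the first array with both drugs 10 were called there. With the block the count was 12, or 7 on replicates 1, 2 and 4 alone. Numbers paired these arrays by the rule used, while only 4 of the 8 correlated best with their own number.

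The average of the 2 comparisons, indacaterol present against absent at 2 h, had 10 members lower and 0 higher, against 0.526% of all genes lower. To the 6 it added AURKA, the kinase that BORA assists (-0.48 ± 0.114, adjusted p = 0.0059), CENPA (-0.37 ± 0.080, adjusted p = 0.0024), BUB1B (-0.21 ± 0.055, adjusted p = 0.015) and CDCA3, a trigger of mitotic entry (-0.27 ± 0.074, adjusted p = 0.032). Aurora A (AURKA) had 6802, 6131, 5392 and 5324 with vehicle, 5144, 4443, 3673 and 3414 with indacaterol, 6379, 5795, 4654 and 4862 with GSK256066 and 5246, 3685, 3493 and 3532 with both drugs. Each indacaterol array was below each vehicle array, while the groups with GSK256066 overlapped. The call of CDCA3 was lost without any of 8 of the 16 arrays, spread over all 4 groups, and without replicate 3 the count was 7.

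Some members had an interval close on both sides of 0 at 2 h, which does not exclude a small change. The median over the 53 members, -0.20, lies near the lower end of the interval of KIF4A. The interval of indacaterol against vehicle was -0.13 to 0.10 for BUB3, -0.14 to 0.14 for PLK4, -0.20 to 0.19 for KIF4A, -0.09 to 0.16 for PTTG1 and -0.11 to 0.23 for ARHGAP19 (95%, log2). None of the 7 kinesins, 5 checkpoint genes or 5 anaphase genes passed, with medians of -0.19, -0.22 and -0.14. Of the other lists, 1 of 40 other mitotic regulators passed, PSRC1, a spindle protein (-0.67), and 0 of 42 DNA replication, 11 DREAM and MuvB, 17 condensin and cohesin, 15 anaphase-promoting complex and 14 CDK inhibitor and p53 target genes. BORA and CDCA8 of the 6 also fell between 1 and 6 h of vehicle, on arrays that this comparison does not use, which is 2 of 6 and 2 of 17. Of all 53 members 17 fell there, a share like that of the 6.

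**Figure D5:**
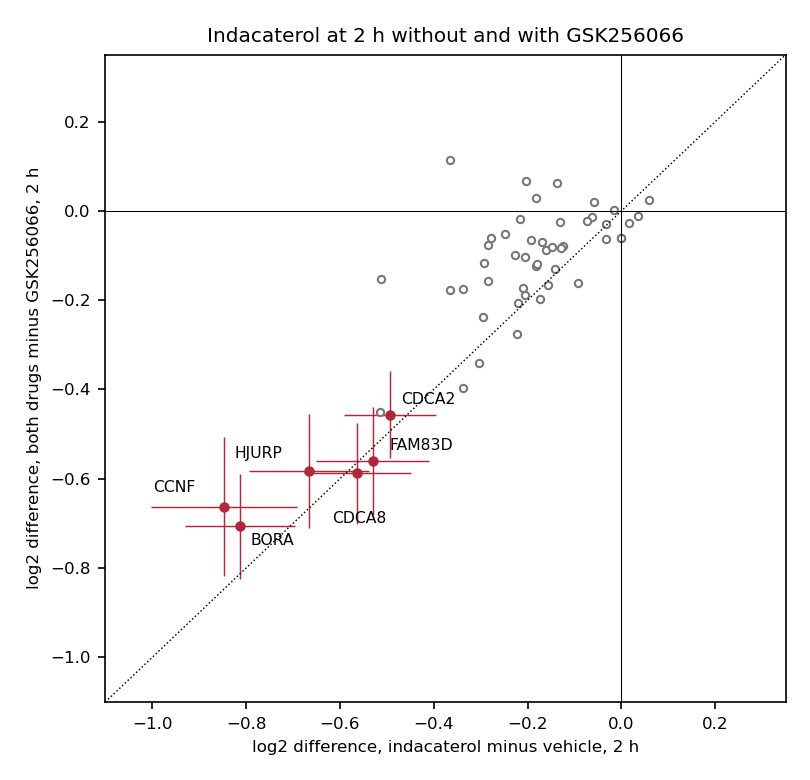
Log2 difference at 2 h of both drugs minus GSK256066 (vertical axis) against indacaterol minus vehicle (horizontal axis) for the 53 mitotic genes; red points with SE bars are the 6 called in both comparisons (limma, adjusted p under 0.05), open points the other 47, and the dotted line marks equal values. The 6 lie at -0.49 or below on the horizontal and -0.46 or below on the vertical axis, and AURKA (-0.51 and -0.45) is the open point nearest to them.

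For a few members the effect of indacaterol differed between times. A moderated F-test of whether indacaterol minus vehicle differed between the 4 times called 3 members, BORA (adjusted p = 0.0023), CCNF (adjusted p = 0.024) and HJURP (adjusted p = 0.029), against 0.268% of all genes. The call of BORA held without any array. The count fell to 1 without the second vehicle or the third indacaterol array at 2 h. It rose to 5 without the fourth indacaterol array at 1 h. Without replicate 2 or replicate 3 throughout it was 0, and without replicate 4 it was 1. For indacaterol present against absent, 6 members differed between times, against 1.22% of all genes, and 6 without replicate 3. They were BORA (adjusted p = 9.1e-06), HJURP (0.00022), CCNF (0.00022), CDCA8 (0.00037), CDCA2 (0.00095) and FAM83D (0.0025). Mean BORA signals with indacaterol were 801 ± 139 at 1 h, 470 ± 63.1 at 2 h, 754 ± 71.6 at 6 h and 1051 ± 103 at 18 h (SD, n = 4). Those with vehicle were 974 ± 144, 835 ± 77.7, 700 ± 58.7 and 1015 ± 108, and the 2 groups overlapped at 1, 6 and 18 h and not at 2 h.

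At 1 h, 0 members passed with indacaterol against vehicle, and 2 had an unadjusted p under 0.05; 0.212% of all genes were called. The median was -0.08 (all genes -0.02) and 50 members were below 0, against 57.9% of all genes. PRC1 (-0.14 ± 0.059, adjusted p = 0.51), BORA (-0.28 ± 0.117, adjusted p = 0.55) and FOXM1, the transcription factor that activates many of these genes (-0.18 ± 0.089, adjusted p = 0.71), had the lowest p. Both drugs against vehicle (0.283% of all genes) and both drugs against GSK256066 (0.142%) also had 0, with 6 and 2 members at an unadjusted p under 0.05; BORA was at -0.35 and -0.25, CCNF at -0.33 and -0.31, FOXM1 at -0.21 in the first and TACC3 at -0.18 in the second. Indacaterol present against absent had 0 (0.506% of all genes) and 8 at an unadjusted p under 0.05, led by BORA (-0.27 ± 0.083, adjusted p = 0.20), CCNF (-0.31 ± 0.110, adjusted p = 0.38) and HJURP (-0.23 ± 0.090, adjusted p = 0.48).

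At 6 h none of those 6 genes passed with indacaterol. Indacaterol minus vehicle was 0.10 for BORA (95% interval -0.13 to 0.34), 0.15 for CCNF (-0.16 to 0.46) and 0.19 for HJURP (-0.07 to 0.45). Indacaterol against vehicle had 0 called members (0.273% of all genes; 6 with an unadjusted p under 0.05), with CDCA3 (-0.26), KIF20A (-0.23) and CCNB2 (-0.23) at the lowest p and adjusted p of 0.75 and above. Both drugs against vehicle had 1 lower member, CDCA3 (-0.40 ± 0.105, adjusted p = 0.048), against 0.263% of all genes. CDCA3 had 3796, 3592, 3117 and 3202 with vehicle, 3095, 2926, 2601 and 2763 with indacaterol, 3377, 3503, 3032 and 3099 with GSK256066 and 2662, 2836, 2131 and 2753 with both drugs, and the both-drug arrays lay below all vehicle and GSK256066 arrays. That call ended without the vehicle array of replicate 1, 2 or 4 or the both-drug array of replicate 1 or 3, and without replicate 1, 2 or 3 throughout. With the block, where numbers paired the arrays, 13 members were lower, but 2 with the block on replicates 1, 2 and 4 alone.

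Both drugs against GSK256066 at 6 h had 0 called (0.359% of all genes), with 12 members at an unadjusted p under 0.05. DLGAP5 (-0.40 ± 0.123, adjusted p = 0.23), CDCA3 (-0.33 ± 0.105, adjusted p = 0.27) and CCNB2 (-0.34 ± 0.109, adjusted p = 0.28) led. With the block 6 were called, but 0 on replicates 1, 2 and 4 alone. Numbers paired these arrays by the rule used, while only 4 of the 8 correlated best with their own number. Indacaterol present against absent at 6 h had 4 lower members, against 0.582% of all genes: CDCA3 (-0.30), DLGAP5 (-0.33), CCNB2 (-0.28) and KIF20A (-0.27), with adjusted p from 0.018 to 0.041. The calls were not firm, and CCNB2 turned to 0.0331 with the mean of all its probe sets in place of the brightest. The count was 0 without the both-drug array of replicate 3, the GSK256066 array of replicate 2, the indacaterol array of replicate 3 or the vehicle array of replicate 1. It was 1 or 2 without each of 5 others (both-drug and indacaterol replicate 4, GSK256066 replicate 1, vehicle and indacaterol replicate 2). Without replicate 1, 2 or 3 throughout it was 0, 0 or 1. With the block, where numbers paired the arrays, it was 13, or 8 on replicates 1, 2 and 4 alone.

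At 18 h 0 members passed in any drug comparison. Indacaterol against vehicle called 0.00506% of all genes, both drugs against vehicle 0.0354%, both drugs against GSK256066 0% and indacaterol present against absent 0.0303%, with 0, 2, 1 and 2 members at an unadjusted p under 0.05. The member medians were 0.04, 0.07, 0.09 and 0.07 (all genes 0.01, 0.02, 0.03 and 0.02). CDC25B had the lowest p in the last 3 (0.21, 0.21 and 0.17, adjusted p of 0.92 and above), followed by CENPF and ESPL1 (separase), TACC3 and NCAPG, and CENPF and PTTG1; PTTG1 (0.12), CENPF (0.14) and MAD2L1 (-0.28) led with indacaterol alone. BORA was at 0.05 (95% interval -0.18 to 0.29) and CCNF at 0.15 (-0.16 to 0.46) with indacaterol.

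GSK256066 alone had 0 called members at 1, 2, 6 and 18 h, and it called 0.00506%, 0%, 0% and 0% of all genes; at each time 0 members had an unadjusted p under 0.05. The member medians were -0.05, -0.09, -0.01 and -0.04 (all genes -0.02, -0.06, -0.01 and -0.01). The lowest p belonged to CCNA2 (cyclin A2), MAD2L1 and PRC1 at 1 h, MAD2L1, BORA and INCENP at 2 h, INCENP, FOXM1 and NUSAP1 at 6 h, and CCNA2, ECT2 and PRC1 at 18 h, with adjusted p of 0.97 and above. BORA differed by -0.20 ± 0.117 at 2 h, when the dimmer second GSK256066 array held its lowest value.

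Adding GSK256066 to indacaterol had no called member at any time. Both drugs against indacaterol called 0% of all genes at 1, 2, 6 and 18 h with 0 members at an unadjusted p under 0.05, and the member medians were 0.00, -0.02, -0.10 and 0.02. At 2 h the 95% intervals were -0.33 to 0.14 for BORA, -0.29 to 0.33 for CCNF, -0.29 to 0.22 for HJURP, -0.27 to 0.19 for CDCA8, -0.27 to 0.12 for CDCA2 and -0.39 to 0.10 for FAM83D. The members with the lowest p were ARHGAP19, PLK4 and TACC3 at 1 h, FAM83D, CDC25C and PTTG1 at 2 h, PLK4, FAM83D and CDCA8 at 6 h, and CDC25B, TACC3 and NCAPG at 18 h, at differences of -0.24 to 0.08. The interaction, which asks whether both drugs minus GSK256066 differs from indacaterol minus vehicle, also had 0 called members and 0% of all genes at each time, and 0 members with an unadjusted p under 0.05. Its interval at 2 h was -0.23 to 0.44 for BORA and -0.26 to 0.63 for CCNF, so 4 arrays per group leave room for a difference either way. The lowest p belonged to PRC1, MAD2L1 and HMMR at 1 h, MAD2L1, INCENP and HMMR at 2 h, CDC25C, CDCA8 and BORA at 6 h, and MAD2L1, ECT2 and KIF14 at 18 h.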

How the data were processed

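RNA of 64 BEAS-2B samples was measured on Affymetrix arrays as labelled cRNA, per the labels' protocols. The deposited intensities are linear probe set summaries that the authors made, with PLIER and Transcriptome Analysis Console 4 named in the submitters' processing notes; background and normalization settings are not given in the sources used here. Of 54675 probe sets, 62 were controls and 41091, 1801 and 11721 carried 1, several or no gene symbol; the 7 member probe sets with several symbols were not used. Each gene took its probe set with the highest mean log2 value.

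Tests were run on log2(intensity + 16) with limma 3.58.1 in R 4.3.3: 1 fit of all 16 groups (48 residual degrees of freedom), with contrasts for each comparison and Benjamini-Hochberg adjustment over 19775 genes, called at 0.05. It was tested on simulated data. Members and gene lists were chosen with earlier results of these data known. Same-numbered arrays were taken as paired where their deviations from group means correlated above 0.1 for every number; no label says what a number marks. The text names called members, or the 8 with the largest change where over 8 were called, or the 3 with the lowest p where 0 were, and 3 genes with the lowest p of a list; other members were named after their values were seen. Alternatives were a pseudocount of 1, quantile normalization, a filter at a mean intensity of 100, the mean over a gene's probe sets, the replicate block (also without replicate 3) and leaving out each replicate or array. The block with quantile normalization and the comparisons of 18 with 6 h were added after the data were seen. Promoters are from RefSeq.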

Additional observations from a re-analysis of the deposited data

Results flagged for a closer look

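Of 84 groups of 4 arrays checked for an array apart from the others, 3 had a gap to the nearest array above Dixon's 95% critical share of the group's range, and chance alone gives about 1 in 20. For the median over the 53 members, the indacaterol group at 18 h had a gap of 0.839 of its range, with replicate 4 highest. For CDC25C under vehicle at 2 h the share was 0.88, with 1621 on replicate 1 against 1513 to 1526. For AURKA with both drugs at 2 h it was 0.89, with 5246 on replicate 1 against 3493 to 3685.

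The effect of indacaterol against vehicle differed between the 4 times by limma's F-test for BORA (adjusted p = 0.002281), CCNF (0.02412) and HJURP (0.02936). The effect of indacaterol present against absent differed between times for BORA (adjusted p = 9.05e-06), HJURP (0.0002156), CCNF (0.0002226), CDCA8 (0.0003669), CDCA2 (0.0009461) and FAM83D (0.002454). In each of these the lowest difference was at 2 h.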

How the results depend on the processing

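Of 39 counts of called members, 273 alternatives other than leaving out a replicate or array in turn (7 each, the block on replicates 1, 2 and 4 among them) gave 230 counts within 1.5 times the main one and 43 outside. Many of the 39 main counts were 0, and an alternative that also gave 0 is among the 230. The 230 therefore overstate how stable the counts above 0 were. Of 1445 alternatives for 71 named member differences, 1267 kept their direction and side of the threshold, 177 kept direction only and 1 turned: CCNB2, indacaterol present against absent at 6 h, was 0.0331 with the mean of all probe sets. A pseudocount of 1 or the mean of all probe sets took both drugs against vehicle at 6 h from 1 to 0. Quantile normalization gave 4 there, 10 for both drugs against vehicle at 2 h, 18 and 7 for indacaterol present against absent at 2 and 6 h, 7 and 7 for 18 against 1 h of vehicle and GSK256066, and 5 for the indacaterol effect over 4 times. The cause was not tested.

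With the replicate block, counts were 33 and 29 for 6 against 1 h of vehicle and GSK256066, 12 and 13 for 18 against 1 h, 11 for GSK256066 at 2 against 1 h, 12 and 13 for both drugs against vehicle at 2 and 6 h, 6 for both drugs against GSK256066 at 6 h, 13 for indacaterol present against absent at 6 h, and 17 and 6 for the effect over 4 times of indacaterol present against absent and of indacaterol. Numbers did not pair the arrays by the correlation rule for indacaterol against vehicle at 2 h (block 10; 6 of 8), vehicle at 2 against 1 h (7; 3 of 8) and indacaterol present against absent at 1 h (2; 13 of 16) and 2 h (21; 14 of 16); in brackets stands how many arrays correlated best with their own number, a hint from the data and not the design. Pairing by the rule did not always go with that count: both drugs against vehicle at 2 h and against GSK256066 at 6 h, both paired, had 4 of 8. The block on replicates 1, 2 and 4 gave 8 and 10 for 18 against 1 h of vehicle and GSK256066, 1 for GSK256066 at 2 against 1 h, 2 for both drugs against vehicle at 6 h and 8 for indacaterol present against absent at 6 h. The block with quantile normalization, chosen after the data were seen, gave 35 and 34 for 6 against 1 h, 16 and 16 for 18 against 1 h, 17, 13, 15 and 9 for both drugs against vehicle and against GSK256066 at 2 and 6 h, 17 for indacaterol at 2 h, 1, 31 and 17 for indacaterol present against absent at 1, 2 and 6 h, and 8 and 25 for the effects over 4 times. The block moved no other count by over 1.5 times. No share of all genes stands beside these block counts, so they do not set the members against all genes.

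Leaving out a replicate or an array gave 4 to 22 members for vehicle at 6 against 1 h, 5 to 18 for GSK256066, 25 to 44 and 21 to 43 for 18 against 6 h, 1 to 4 and 2 to 6 for 18 against 1 h, 19 to 43 for vehicle over 4 times, 2 to 6 for both drugs against GSK256066 at 2 h, 6 to 10 and 0 to 1 against vehicle at 2 and 6 h, 0 to 6 for indacaterol present against absent at 6 h and 0 to 5 for the indacaterol effect over 4 times. Background correction and slide or scan date were not run, since the values are summaries and the labels give neither.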
